A study of Rattus norvegicus with 30 samples.

Results

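The genes described here are 37 genes of the Nrf2 pathway, of glutathione metabolism and of the antioxidant enzymes, listed by name. They comprise the transcription factor Nfe2l2 (Nrf2) and its inhibitor Keap1, 4 genes of glutathione synthesis, 10 glutathione transferases, 7 peroxide-removing enzymes including catalase, 2 superoxide dismutases, 6 reductases and a last group of 6 genes of haem breakdown, conjugation, NADPH supply and export. Of these, 36 were measured, among 14217 genes on the arrays. Prdx1, a peroxiredoxin, lay only on a probe set shared with another symbol and was not used. Of the 36 genes, 21 passed the test (adjusted p under 0.05) in at least 1 comparison and 15 in none.

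Gene expression was read in oesophageal epithelium, 1 Affymetrix array for each of 30 male rats of Sprague-Dawley stock. All 6 groups were given N-nitrosomethylbenzylamine (NMBA), which causes oesophageal tumours in rats, in 4 weekly doses of 2 mg/kg from week 5. The 20-week antimiR group (n = 5) was fed a zinc-deficient (ZD) diet and injected by the tail vein with antimiR, a locked nucleic acid that pairs with the microRNA miR-31. It had 20 mg/kg to load, then 9 doses of 6 mg/kg to maintain the level within the first 5 weeks, and 20 further doses after that. The 5-week antimiR group (n = 5), also on ZD, had the same doses of the first 5 weeks and no more. Untreated ZD rats (n = 5) and untreated zinc-sufficient (ZS) rats (n = 5) had no injection, so that no group had a control oligonucleotide. ZD rats ate freely and ZS rats were pair-fed to them, from 4 weeks of age. The knockout rats lacked miR-31 through CRISPR/Cas9 editing and were on ZD (n = 6) or ZS (n = 4) with the same NMBA treatment, in a separate experiment whose wild-type littermates were not analysed here. All 6 groups are recorded here as ending 15 weeks after the first NMBA dose. For the 5-week group the labels leave it unclear whether the rats were killed earlier. The level of miR-31 itself was not analysed here. The mature miR-31 that the antimiR opposes and the knockout removes is shown here with its seed (bases 2 to 8) in capitals, from RefSeq GRCr8, chr5:108714906-108714927, minus strand.
rno-miR-31a-5p: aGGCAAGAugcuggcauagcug

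Nrf2 is a transcription factor that Keap1 holds in the cytoplasm and delivers to the Cul3 ubiquitin ligase for degradation. Oxidants and electrophiles modify cysteines of Keap1, Nrf2 then accumulates, pairs with a small Maf protein in the nucleus and binds antioxidant response elements beside genes of glutathione synthesis, conjugation and NADPH-dependent reduction. In the oesophagus the pathway is known from mice lacking Keap1, whose oesophagus and forestomach become hyperkeratotic, and from human squamous carcinomas with mutations of NFE2L2 or KEAP1. Many of the same genes also answer to other regulators, such as ATF4 for the cystine transporter Slc7a11 and NF-kB for Sod2.

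All values are the authors' log2 expression values, on which a difference of 1 is a doubling. "Rose" and "fell" are used where the adjusted p in limma, taken over all 14217 genes, was under 0.05. Levels are not compared between genes, since each gene was read by its own probe set. The median of an array was 5.37 to 5.45 for the 20 unedited rats, whereas the 10 knockout rats had medians of 5.81 to 5.93, and the lowest correlation between 2 arrays of a group was 0.977. Nothing says that the knockout arrays were normalized with the others, so knockout and unedited rats were not tested against each other.

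The mean of 9 squamous epithelial marker genes lay between 12.0 and 12.2 in all 6 groups. Single markers of the 9 differed more. They ran from -0.54 to 0.51 on diet in unedited rats and from -0.15 to 1.15 in knockout rats. After 20 weeks of antimiR against untreated ZD they ran from -0.71 to 0.87. In unedited rats 2 of these 9, Krt15, a basal keratin (log2 -0.19, adjusted p = 0.0461), and Evpl, envoplakin of the cornified envelope (log2 -0.50, adjusted p = 0.0126), fell on ZD. The mean of 12 smooth muscle markers varied between groups. It was 8.21 (range 6.91 to 9.24) in the 20-week antimiR group, 7.93 (6.95 to 9.04) in the 5-week group, 7.38 (6.92 to 7.93) in untreated ZD rats and 9.14 (8.59 to 9.96) in ZS rats, and 9.59 (9.00 to 10.53) in ZD and 10.69 (10.29 to 11.24) in ZS knockout rats. On ZD 10 of these 12 genes fell in unedited rats and 4 of 12 in knockout rats. Of 8 macrophage markers none passed on diet in unedited rats and 4 fell in knockout rats, where their mean was 6.63 (6.03 to 6.92) in ZD and 7.44 (6.52 to 8.61) in ZS rats; 3 of 8 passed in the interaction, all lower. After 20 weeks of antimiR against untreated ZD none of the 8 passed, against 0.647% of all genes, with a median difference of -0.66. In 5 of 8 the groups did not overlap, against 2.6% of all genes. List means were 5.37 (5.22 to 5.51) in 20-week antimiR and 6.04 (5.89 to 6.29) in untreated ZD rats. All 7 fibroblast markers were below 0 in both diet comparisons, with 2 passing in knockout rats (means 10.31 in ZD and 11.07 in ZS) and 0 in unedited rats (9.55 and 10.01; smallest adjusted p 0.117). Of 6 endothelial markers, all were below 0 and 1 fell in knockout rats, all were above 0 and 1 rose in unedited rats, and 2 passed in the interaction. The mean of 10 skeletal muscle markers ran from 5.39 to 10.21 within untreated ZD rats and from 6.11 to 9.74 within ZS rats. It ran from 8.31 to 10.74 in ZD and from 9.34 to 10.55 in ZS knockout rats. On diet 0 of the 10 passed in unedited rats and 1 fell in knockout rats. Of 3 erythroid markers 1 rose in unedited rats and 0 passed in knockout rats. Of 4 neutrophil markers 0 passed in unedited rats, and 1 rose and 1 fell in knockout rats. For the diet counts of all these markers, the share of all genes was 6.94% rising and 6.95% falling in unedited rats. In knockout rats it was 9.47% and 12%. In the interaction 8.39% of all genes passed, 3.78% higher and 4.61% lower. Muscle and fibroblast markers were thus read beside epithelial ones. In such mixed samples, fewer cells of a type and less RNA per cell cannot be told apart. What part these markers have in the results below was not tested beyond a fit with the smooth muscle mean of each array as a covariate.

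**Figure D1:**
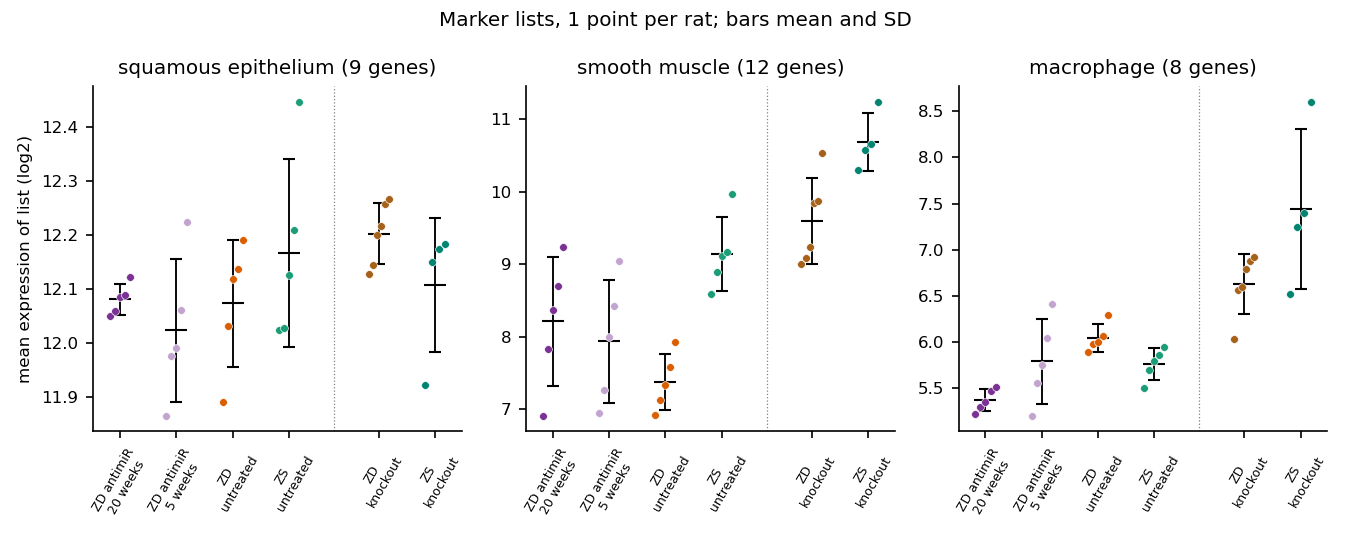
Mean log2 expression (y axis) of 9 squamous, 12 smooth muscle and 8 macrophage marker genes in each of 6 groups (x axis), 1 point per rat with the points of a group spread by level, bars showing mean and SD; the y axes differ between panels. The squamous mean lies near 12 in all groups, while every untreated ZD array has a lower smooth muscle mean than any unedited ZS array.

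The first comparison asked what zinc deficiency did to these genes in rats without antimiR, 5 untreated ZD against 5 ZS. Nfe2l2 and Keap1 did not pass. Of the genes that supply and build glutathione 3 of 4 rose. So did 2 transferases, a pair of carbonyl and aldehyde reductases, mitochondrial superoxide dismutase and an export pump. Nqo1, Gclc and Hmox1 did not pass. In all, 13 of 36 genes (36.1%) passed, against 13.9% of all genes. Of these, 9 rose (25.0%, against 6.94% of all genes) and 4 fell (11.1%, against 6.95%). The genes were chosen with earlier results of these data known, so that these and the later shares are descriptions. The median difference over the 36 genes was 0.03, and over all genes it was 0.00.

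Nfe2l2 was 11.70, 11.42, 11.75, 11.45 and 11.83 in ZD rats, against 11.47, 11.68, 11.59, 11.46 and 11.63 in ZS rats. The groups overlapped, and the difference was 0.07 with a 95% interval from -0.12 to 0.25 (adjusted p = 0.694). Keap1, the inhibitor, was 7.33, 7.42, 7.51, 7.51 and 7.55 in ZD rats, against 7.80, 7.56, 7.59, 7.63 and 7.64 in ZS rats. All ZD values lay below all ZS values, by a mean of 0.18 (log2 difference -0.18, SE 0.08), and the test was not passed (adjusted p = 0.158). The groups did not overlap for 10 of the 36 genes, 9 of which passed, against 11.4% of all genes.

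Of the 4 genes of glutathione synthesis, 3 rose. Slc7a11 encodes the transporter that brings in cystine, the source of the cysteine in glutathione. It was 9.74, 9.80, 9.47, 9.69 and 9.11 in ZD rats, against 7.87, 8.23, 8.26, 7.71 and 8.13 in ZS rats. The lowest ZD rat was above the highest ZS rat by more than the whole ZS range, and Slc7a11 rose by 1.52 (SE 0.19, 2.87-fold, adjusted p = 3.11e-05). Gclm, the modifier subunit of glutamate-cysteine ligase, the first and limiting enzyme of synthesis, was 10.97, 10.64, 10.47, 10.40 and 10.46 in ZD rats, against 9.94, 10.19, 9.91, 9.70 and 10.26 in ZS rats. It rose by 0.59 (SE 0.11, 1.5-fold, adjusted p = 0.00106) without overlap. Gclc, the catalytic subunit of the same enzyme, differed by only 0.07 (95% interval -0.18 to 0.33, adjusted p = 0.753), and its second probe set by 0.12. Gss, glutathione synthetase, which adds the last amino acid, ranged from 7.38 to 8.05 in ZD rats, against 6.64 to 7.22 in ZS rats, and rose by 0.74 (SE 0.18, adjusted p = 0.00579).

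Glutathione transferases, which attach glutathione to electrophiles, moved both ways, with 2 of 10 rising and 2 falling. Gstm1, of the mu class, was 11.64, 11.46, 11.14, 11.30 and 11.37 in ZD rats, against 10.28, 9.99, 10.03, 10.14 and 10.28 in ZS rats. The groups were well apart, and Gstm1 rose by 1.24 (SE 0.18, 2.36-fold, adjusted p = 0.000102). Mgst2, a membrane-bound enzyme that can also make leukotriene C4, was 10.94, 11.57, 11.55, 11.63 and 11.00 in ZD rats, against 10.26, 10.20, 10.28, 10.07 and 10.54 in ZS rats. It rose by 1.06 (SE 0.19, adjusted p = 0.000639) without overlap. Mgst3, of the same membrane family, was 8.71, 8.57, 9.13, 8.50 and 8.98 in ZD rats, against 9.73, 9.33, 9.36, 9.65 and 9.63 in ZS rats. It fell by 0.76 (SE 0.14, adjusted p = 0.000732), also without overlap, so that 2 relatives moved in opposite directions. Gsto1, of the omega class, ranged from 11.03 to 11.28 in ZD rats, against 11.26 to 11.56 in ZS rats, and fell by 0.21 (SE 0.07, adjusted p = 0.0453). Gstp1, the pi-class enzyme, did not pass with a difference of 0.27 (adjusted p = 0.275). The differences of the remaining 5 transferases, Gsta4, Gstm2, Gstt1, Gstt2 and Mgst1, ran from -0.25 for Gstt2 to 0.01 for Gsta4. Mu-class genes are close in sequence, and how much the Gstm1 probe set reads Gstm2 or others was not tested; Gstm2 itself was -0.11.

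Among enzymes that remove peroxides, 1 of 6 passed. Gpx3, the secreted glutathione peroxidase, ranged from 7.08 to 7.53 in ZD rats, against 8.08 to 8.61 in ZS rats, and fell by 1.00 (SE 0.29, adjusted p = 0.022). Gpx1, Gpx2 and Gpx4, peroxidases inside the cell, had differences of 0.14, 0.02 and -0.18, catalase (Cat) of -0.01 and Prdx6 of 0.04. Of the superoxide dismutases, mitochondrial Sod2 ranged from 9.72 to 10.69 in ZD rats, against 9.68 to 9.96 in ZS rats. It rose by 0.55 (SE 0.14, adjusted p = 0.00916), with ZD rat 15 inside the ZS range. Cytosolic Sod1, the zinc-containing form, differed by -0.03 (95% interval -0.20 to 0.14).

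Reductases also divided. Akr1b8, an aldo-keto reductase that detoxifies aldehydes, was 10.77, 11.53, 10.88, 11.82 and 9.73 in ZD rats, against 9.50, 8.99, 9.28, 9.31 and 10.04 in ZS rats. It rose by 1.53 (SE 0.30, 2.88-fold, adjusted p = 0.00159), although ZD rat 15 was below ZS rat 20. Cbr1, a carbonyl reductase, was 9.79, 11.18, 9.40, 9.63 and 9.08 in ZD rats, against 8.65, 8.57, 8.58, 8.73 and 8.48 in ZS rats. It rose by 1.21 (SE 0.22, adjusted p = 0.000955); the ZD rats spread widely, with rat 12 highest, and all were above the ZS rats. Txnrd1, cytosolic thioredoxin reductase, went the other way. It was 7.90, 7.62, 7.67, 7.38 and 7.26 in ZD rats, against 8.10, 8.20, 7.89, 7.88 and 8.03 in ZS rats, and fell by 0.45 (SE 0.11, adjusted p = 0.00869). Its second probe set gave -0.58 (adjusted p over probe sets = 0.0235). Nqo1, a quinone reductase, differed by 0.08 (95% interval -0.19 to 0.36, adjusted p = 0.741). Srxn1, sulfiredoxin, and Gsr, glutathione reductase, had differences of 0.23 and 0.14 and did not pass.

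In the last group 1 of 6 passed. Abcc4, a pump that exports conjugates and cyclic nucleotides, was 9.67, 9.51, 9.50, 9.89 and 9.56 in ZD rats, against 8.54, 8.83, 8.77, 8.31 and 8.84 in ZS rats. It rose by 0.97 (SE 0.18, 1.95-fold, adjusted p = 0.000831), with a clear gap between the groups. Abcc1, a related glutathione-conjugate pump, was at 0.23 (adjusted p = 0.174). Hmox1, haem oxygenase 1, varied within groups, from 9.23 to 10.88 in ZD rats and from 9.53 to 10.22 in ZS rats, and its difference of -0.13 had an interval from -0.85 to 0.59. Ephx1, microsomal epoxide hydrolase, was at -0.39 (adjusted p = 0.0719), Ugdh, which makes UDP-glucuronic acid, at -0.24 and Me1, the NADPH-producing malic enzyme, at -0.07.

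With the smooth muscle covariate, 2 of these 13 genes passed, Slc7a11 at 0.91 (adjusted p = 0.0173) and Gstm1 at 0.85 (adjusted p = 0.0465). Of the 11 that did not, 4 moved by more than 1.5 times, to -0.34 for Gpx3, 0.25 for Sod2, 0.48 for Abcc4 and 0.64 for Mgst2. The other 7 were at 1.30 for Akr1b8, 0.98 for Cbr1, 0.55 for Gss, 0.47 for Gclm, -0.21 for Gsto1, -0.43 for Txnrd1 and -0.60 for Mgst3 (adjusted p 0.095 to 0.283). The covariate itself differs by diet, and with it 168 of all genes passed on diet, against 1974 without it. The Gsto1 call was lost without ZD rat 11, 12, 14 or 15 or ZS rat 16, 17 or 19 (log2 -0.23 to -0.17, adjusted p 0.0546 to 0.131), and the Gpx3 call without ZD rat 12 or 14 or ZS rat 17 (log2 -0.97 to -0.93, adjusted p 0.0513 to 0.0585).

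**Figure D2:**
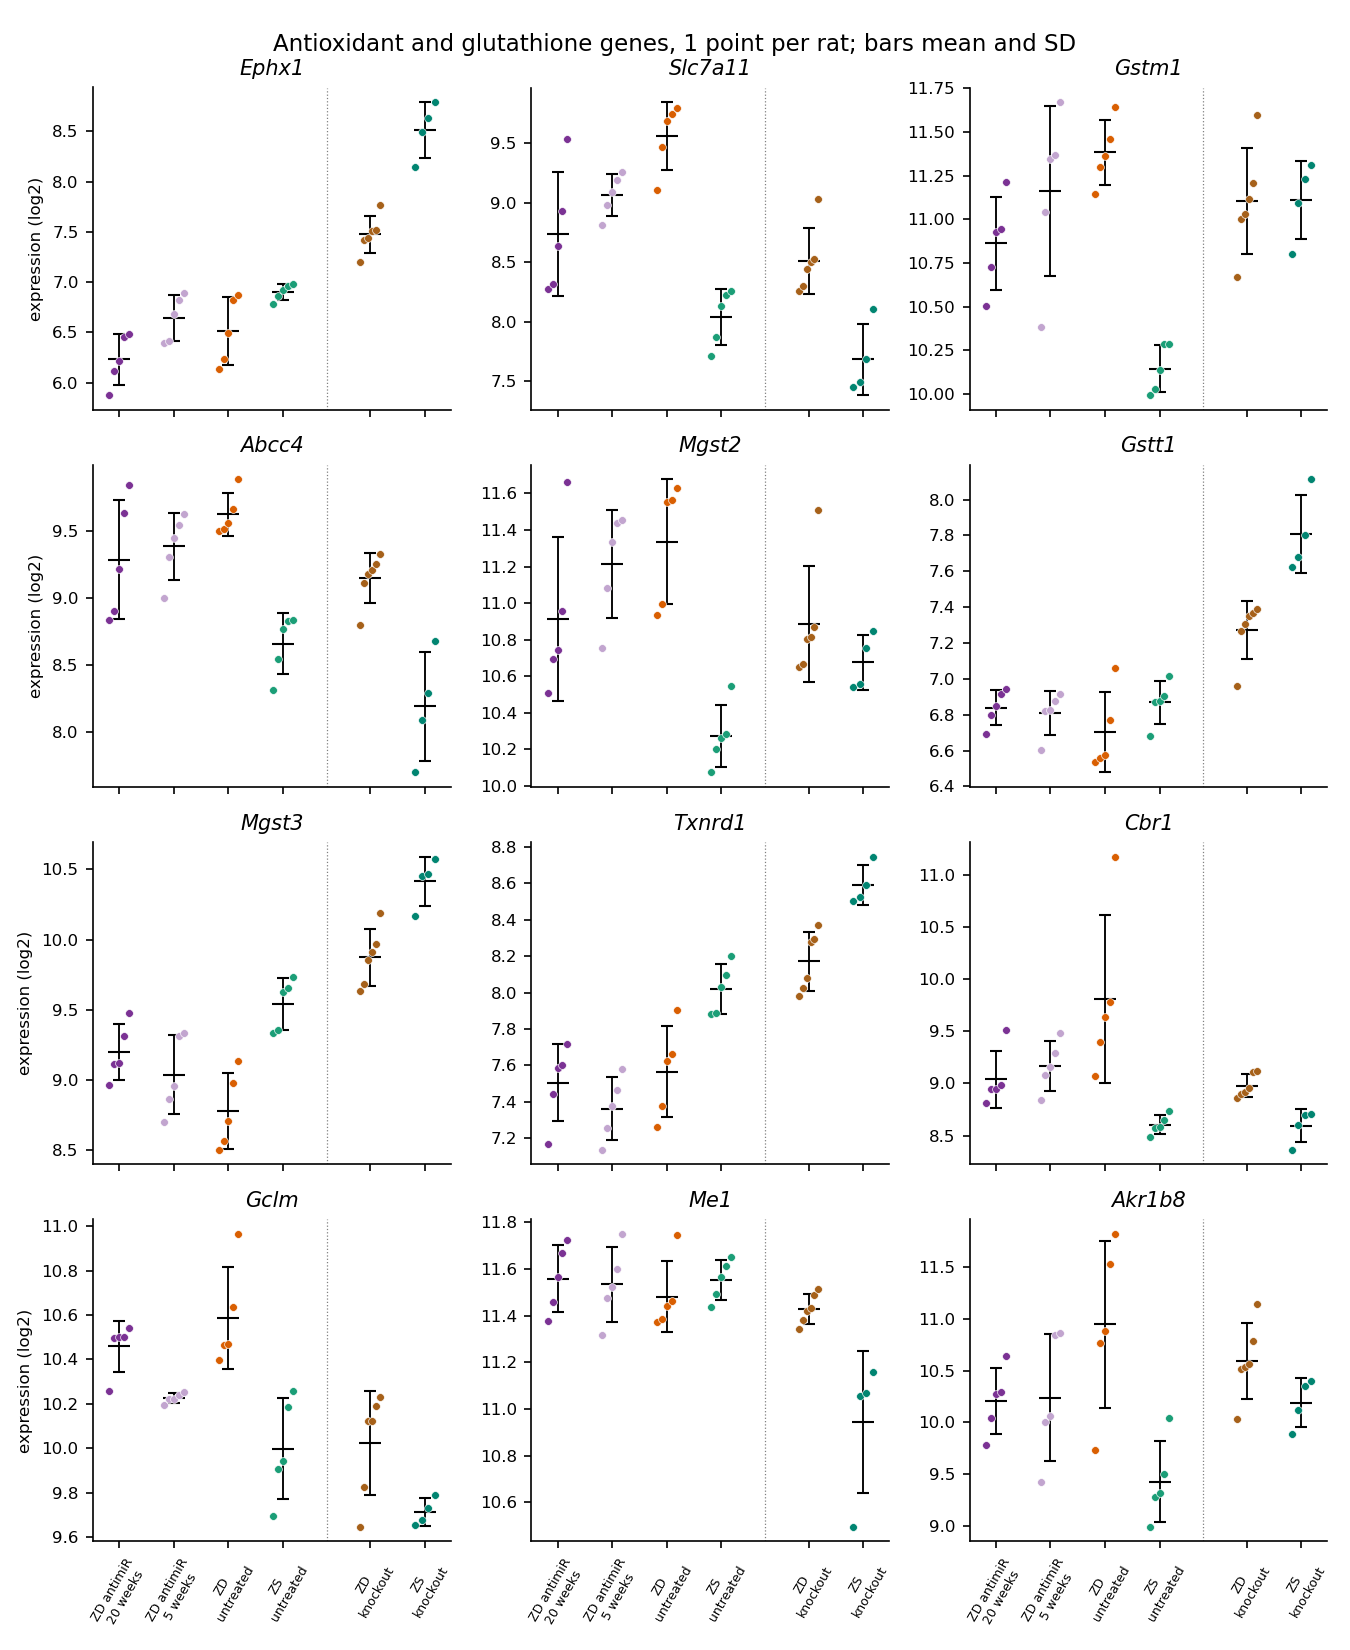
Log2 expression (y axis, scaled to each gene) of the 12 genes with the smallest adjusted p in any comparison, in 6 groups (x axis), 1 point per rat with the points of a group spread by level, bars showing mean and SD; knockout groups, from a separate experiment, stand right of the dotted line. Untreated ZD rats lie above ZS rats for Slc7a11, Gstm1, Abcc4, Mgst2, Gclm and Cbr1 and below them for Mgst3.

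The promoter windows of these genes were searched for the core letters of the antioxidant response element, TGACNNNGC on either strand, in the 250 bases before and 50 after each start in RefSeq GRCr8. Of the 37 genes, 31 had a window, and 8 of these (25.8%) held the letters, against 12.2% of 27457 promoters and 14.4% of 11733 promoters of genes on the arrays. The genes were listed for the Nrf2 pathway and antioxidant defence, so that this share describes the list and not the diets. The 8 include Prdx1, which was not measured. Among genes that rose on ZD in unedited rats, 2 of 8 with a window held them, among those that fell 0 of 4, and among those that did not pass 5 of 18. The letters overlap those of AP-1 sites, TGANTCA, in Gstp1, Me1 and Prdx1. The AP-1 letters themselves were in 19.4% of the 31 windows, against 7.33% of all promoters and 5.44% of those of genes on the arrays. The stretches around the core in measured genes are printed in the gene's own direction with the core in capitals, so that the genes that carry it can be set beside their values. Gclm and Sod2 rose on ZD in unedited rats, Me1 rose on ZD in knockout rats, and Gpx2, Gstp1 and Ugdh passed in neither diet comparison. In Nfe2l2 the letters lie after the start and are not shown.
Gclm, chr2:213031943-213031991, plus strand, core from -172 to -164 counted from the start: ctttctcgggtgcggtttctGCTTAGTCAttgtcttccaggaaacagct
Sod2, chr1:50050175-50050223, minus strand: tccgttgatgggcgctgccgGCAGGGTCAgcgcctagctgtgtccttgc
Me1, chr8:96540383-96540431, minus strand: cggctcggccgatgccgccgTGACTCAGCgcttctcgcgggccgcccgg
Gstp1, chr1:210769738-210769786, minus strand: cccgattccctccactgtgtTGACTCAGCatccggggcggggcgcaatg
Gpx2, chr6:101230034-101230066, minus strand: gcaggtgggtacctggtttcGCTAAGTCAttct
Ugdh, chr14:43202291-43202339, plus strand: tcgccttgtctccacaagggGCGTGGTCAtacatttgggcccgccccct
A match is a description of these letters and not a site, and a window without them says only that they are not in those 300 bases.

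The next comparison asked what 20 weeks of antimiR did to ZD rats, 5 treated against the same 5 untreated ZD rats. Slc7a11 fell and Gstt2, a theta-class transferase, rose, and no other of the 36 genes passed. That is 5.56% of the genes, against 0.647% of all genes (0.162% rising and 0.485% falling). Slc7a11 was 8.64, 9.54, 8.93, 8.32 and 8.27 in 20-week antimiR rats, against 9.74, 9.80, 9.47, 9.69 and 9.11 in untreated ZD rats. AntimiR rat 2 reached the untreated range, and the fall was 0.82 (log2 -0.82, SE 0.19, adjusted p = 0.0412). Gstt2 ranged from 8.47 to 8.74 in 20-week antimiR rats, against 7.76 to 8.38 in untreated ZD rats, and rose by 0.48 (SE 0.10, adjusted p = 0.0279) without overlap, the 1 such gene of the 36, against 2.6% of all genes. Its second, dimmer probe set gave 0.12 (adjusted p over probe sets = 0.735).

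Other genes had an unadjusted p under 0.01 without passing. Cbr1, the carbonyl reductase, was 8.81, 9.51, 8.99, 8.95 and 8.95 in 20-week antimiR rats, against 9.79, 11.18, 9.40, 9.63 and 9.08 in untreated ZD rats, a difference of -0.78 (SE 0.22, adjusted p = 0.0958) that was -0.43 without untreated ZD rat 12. Gstm1 was at -0.52 (adjusted p = 0.160), Sod2 at -0.44 (adjusted p = 0.125) and Mgst3 at 0.42 (adjusted p = 0.142). Gstm1 was 10.73, 10.94, 11.21, 10.93 and 10.50 in these rats, against 11.14 to 11.64 in untreated ZD rats, with 1 antimiR rat inside that range. Akr1b8 was 10.27, 10.64, 10.29, 9.78 and 10.04, between the means of untreated ZD rats (10.95) and ZS rats (9.42), and its difference of -0.74 did not pass (adjusted p = 0.238). All 9 genes that rose on ZD had differences below 0 and 3 of the 4 that fell had differences above 0, but both comparisons use the same untreated ZD rats, so that this count is a description. Mgst3 was 9.11, 8.96, 9.12, 9.47 and 9.31 in 20-week antimiR rats, with 2 of them above the untreated ZD range. Abcc4, Mgst2 and Gclm, all raised by ZD, were at -0.34, -0.42 and -0.13 from untreated ZD; Gclm was 10.26, 10.50, 10.54, 10.50 and 10.50 in 20-week rats, within the untreated range but for rat 1. Gstt1 was 6.92, 6.80, 6.85, 6.70 and 6.94 and Me1 11.56, 11.38, 11.67, 11.46 and 11.72 in 20-week rats, both overlapping untreated ZD. The 34 genes that did not pass ran from -0.78 for Cbr1 to 0.42 for Mgst3. Nfe2l2 was 11.82, 11.96, 11.68, 11.55 and 11.43 and Keap1 7.21, 7.48, 7.56, 7.55 and 7.50 in 20-week antimiR rats, with differences from untreated ZD of 0.06 and -0.01.

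Neither call held in most fits that left out a rat. Slc7a11 lost its call without antimiR rat 1, 3, 4 or 5 or ZD rat 11, 12, 13 or 14 (log2 -0.87 to -0.71, adjusted p 0.0531 to 0.145), Gstt2 without antimiR rat 1, 3, 4 or 5 or ZD rat 12, 13 or 14 (log2 0.39 to 0.51, adjusted p 0.0508 to 0.123), and both with the smooth muscle covariate (log2 -0.54, adjusted p = 0.107, and 0.44, adjusted p = 0.0735).

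After 5 weeks of antimiR, 0 of 36 genes passed against untreated ZD in limma, as did 0% of all genes; 7 of the 36 and 1021 of the 14217 had an unadjusted p under 0.05. Those of the 36 under 0.01 were Gclm, Nqo1 and Cbr1. Gclm was 10.22, 10.24, 10.25, 10.20 and 10.22 in 5-week antimiR rats, against 10.97, 10.64, 10.47, 10.40 and 10.46 in untreated ZD rats. The 5-week rats were nearly equal and all below the untreated rats, by a mean of 0.36 (log2 -0.36, SE 0.11, adjusted p = 0.490). Nqo1 ranged from 11.00 to 11.47 in 5-week antimiR rats, against 11.22 to 11.92 in untreated ZD rats, a difference of -0.40 (adjusted p = 0.503). Cbr1 was 9.09, 9.15, 9.49, 9.29 and 8.84 in 5-week antimiR rats, a difference of -0.64 (adjusted p = 0.503) that was -0.30 without untreated ZD rat 12. Akr1b8 was 9.42, 10.06, 10.87, 10.85 and 10.00 in these rats, spread across both untreated diets, with the lowest difference of the 36 genes at -0.71 (adjusted p = 0.609). Groups did not overlap for 2 of the 36 genes, Gclm and Gstp1, against 1.12% of all genes. Slc7a11 was 8.98, 9.26, 8.81, 9.19 and 9.09 in 5-week antimiR rats, all above the ZS rats and 2 of them inside the untreated ZD range, with a difference of -0.50 from untreated ZD (adjusted p = 0.571). Nfe2l2 was 11.63, 11.81, 11.76, 11.75 and 11.91 and Keap1 7.31, 7.12, 7.51, 7.58 and 7.51 in these rats, with differences of 0.14 and -0.06. Gstt1 was 6.83, 6.82, 6.88, 6.60 and 6.91 and Me1 11.75, 11.60, 11.48, 11.32 and 11.52 in 5-week rats, both overlapping untreated ZD. The highest difference of the 36 genes was 0.45 for Gpx3 (adjusted p = 0.785).

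The 2 schedules were also set against each other, and 0 of 36 genes passed, against 0.0211% of all genes; 5 of the 36 and 868 of the 14217 had an unadjusted p under 0.05. Gstt2 ranged from 8.47 to 8.74 in 20-week rats, against 8.06 to 8.42 in 5-week rats, a difference of 0.32 (SE 0.10, adjusted p = 0.536). It and Gclm were the 2 genes of the 36 whose groups did not overlap, against 0.943% of all genes. Ephx1 was 5.88, 6.12, 6.21, 6.46 and 6.49 in 20-week rats, against 6.82, 6.68, 6.42, 6.40 and 6.89 in 5-week rats, a difference of -0.41 (SE 0.14, adjusted p = 0.633). Slc7a11 was lower by 0.33 in 20-week rats (log2 -0.33, 95% interval -0.72 to 0.07), so that these data do not tell the 2 schedules apart for it.

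Set against ZS rats instead, the antimiR groups show how far they stood from zinc sufficiency, with the ZS rats shared by both comparisons and by the diet comparison. In 20-week antimiR rats 7 of 36 genes passed (19.4%, against 3.63% of all genes), 5 rising (against 1.83%) and 2 falling (against 1.8%). Groups did not overlap for 10 of the 36, against 6% of all genes. Slc7a11 was higher by 0.70 (adjusted p = 0.0394), Gclm by 0.46 (adjusted p = 0.0196), Gstm1 by 0.72 (adjusted p = 0.0238), Abcc4 by 0.63 (adjusted p = 0.0434) and Abcc1 by 0.39 (adjusted p = 0.0426). Txnrd1 fell by 0.52 (adjusted p = 0.0119) and Ephx1 by 0.67 (adjusted p = 0.011). Abcc4 was 9.64, 9.85, 9.22, 8.90 and 8.84 in 20-week rats, with 2 rats at the untreated ZD level and 2 next to the top of the ZS range. Mgst2, at 10.96, 11.66, 10.74, 10.70 and 10.51 in 20-week rats, just missed the threshold with 0.64 (adjusted p = 0.0532), and Gsto1 at -0.21 and Gpx4 at -0.31 had an unadjusted p under 0.01 without passing. Txnrd1 was 7.17, 7.44, 7.72, 7.60 and 7.59, below every ZS rat.

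In 5-week antimiR rats 10 of 36 genes passed against ZS (27.8%, against 9.08% of all genes), 6 rising (against 4.6%) and 4 falling (against 4.48%). Groups did not overlap for 7 of the 36, against 8.23% of all genes. Slc7a11 was higher by 1.03 (adjusted p = 0.00173), Gstm1 by 1.02 (adjusted p = 0.000989), Mgst2 by 0.94 (adjusted p = 0.00261), Abcc4 by 0.73 (adjusted p = 0.00996), Gss by 0.59 (adjusted p = 0.0323) and Abcc1 by 0.40 (adjusted p = 0.021). Txnrd1 fell by 0.66 (adjusted p = 0.00083), Mgst3 by 0.51 (adjusted p = 0.0199), Ugdh by 0.45 (adjusted p = 0.0136) and Gsto1 by 0.22 (adjusted p = 0.0477). Gstm1 was 11.04, 11.67, 11.37, 10.39 and 11.34 in 5-week rats and Mgst2 10.76, 11.33, 11.45, 11.44 and 11.08, all above every ZS rat. Abcc4 was 9.00, 9.45, 9.63, 9.31 and 9.55 in these rats, also above every ZS rat. Txnrd1 was 7.58, 7.25, 7.14, 7.46 and 7.38, below every ZS rat. Mgst3 was 9.34, 8.70, 8.96, 8.86 and 9.32, with 1 rat just inside the ZS range. Keap1 had an unadjusted p under 0.01 without passing (log2 -0.24, adjusted p = 0.0741).

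In the comparison of 20-week antimiR with ZS, all calls except Ephx1 were lost in 1 or more fits without a rat: Txnrd1 without antimiR rat 1 (log2 -0.43, adjusted p = 0.0518), Gstm1 without antimiR rat 2 or 3 or ZS rat 18 (log2 0.63 to 0.70), Gclm without antimiR rat 2 or ZS rat 16, 18 or 19 (log2 0.39 to 0.45), Slc7a11 and Abcc4 each without antimiR rat 1, 2 or 3 or ZS rat 16, 18, 19 or 20 (log2 0.50 to 0.75 and 0.49 to 0.67), and Abcc1 without antimiR rat 1, 2, 3 or 4 or ZS rat 16, 18, 19 or 20 (log2 0.35 to 0.43). In that of 5 weeks, Gss was lost without antimiR rat 8 or 9 or ZS rat 18, 19 or 20 (log2 0.45 to 0.59), Gsto1 without antimiR rat 6, 7, 8 or 10 or ZS rat 16, 17 or 19 (log2 -0.24 to -0.18), Mgst3 without antimiR rat 7, 8 or 9 or ZS rat 16 (log2 -0.49 to -0.42), Ugdh without antimiR rat 7 (log2 -0.35) and Abcc1 without antimiR rat 8 or 10 or ZS rat 18, 19 or 20 (log2 0.34 to 0.38). With the smooth muscle covariate 0 genes passed for 20 weeks (limma) and 3 for 5 weeks, Slc7a11 (0.61), Gstm1 (0.75) and Txnrd1 (log2 -0.64).

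**Figure D3:**
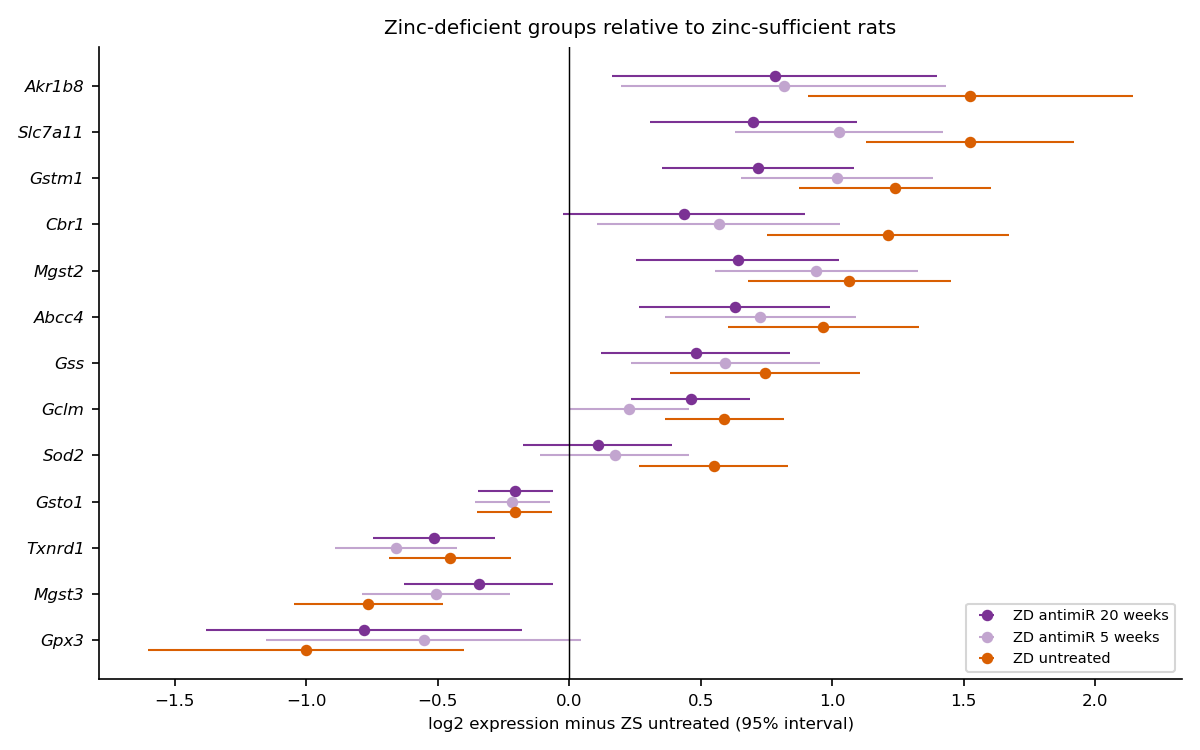
Log2 difference from untreated ZS rats (x axis) with its 95% interval for the 13 genes (y axis) that passed on diet in unedited rats, in ZD rats with 20 weeks of antimiR, with 5 weeks of antimiR and untreated; n = 5 per group, and all points share the ZS rats. For all 9 genes that rose on diet, both antimiR points lie between 0 and the untreated ZD point. The genes were picked by the untreated ZD difference drawn here, so that this order is partly built in and is a description.

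Knockout rats were used to ask what zinc deficiency does without miR-31, 6 ZD against 4 ZS. Here 12 of 36 genes passed (33.3%, against 21.4% of all genes), 6 rising (16.7%, against 9.47%) and 6 falling (16.7%, against 12%). Groups did not overlap for 8 of the 36, against 14.3% of all genes. The cystine transporter and the export pump Abcc4 rose again and Txnrd1, Mgst3 and Gpx3 fell again, while epoxide hydrolase and theta-class transferase fell and sulfiredoxin and malic enzyme rose. The median over the 36 genes was 0.01, as it was over all genes.

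Nfe2l2 had a lowest value of 11.63, a median of 11.76 and a highest of 11.91 in ZD knockout rats, against 11.61, 11.71, 11.42 and 11.64 in ZS knockout rats. The groups overlapped, with a difference of 0.17 (95% interval -0.02 to 0.36, adjusted p = 0.205). Keap1 had a lowest value of 7.70, a median of 7.80 and a highest of 8.04 in ZD knockout rats, against 8.05, 7.97, 8.12 and 7.87 in ZS knockout rats, a difference of -0.18 (adjusted p = 0.144). Its second probe set, dim with a mean of 4.48, gave -0.95 (adjusted p over probe sets = 0.000112), so that the 2 probe sets of Keap1 disagree in size.

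Slc7a11 had a lowest value of 8.26, a median of 8.47 and a highest of 9.03 in ZD knockout rats, against 7.45, 7.68, 7.49 and 8.11 in ZS knockout rats. It rose by 0.83 (SE 0.20, adjusted p = 0.00385) without overlap. Gclm had a lowest value of 9.65, a median of 10.12 and a highest of 10.23 in ZD knockout rats, against 9.68, 9.73, 9.79 and 9.65 in ZS knockout rats, and rose by 0.31 (SE 0.11, adjusted p = 0.0489). Gss differed by 0.06 (95% interval -0.31 to 0.43). Abcc4 had a lowest value of 8.80, a median of 9.20 and a highest of 9.33 in ZD knockout rats, against 8.68, 8.09, 7.70 and 8.29 in ZS knockout rats, and rose by 0.96 (SE 0.18, adjusted p = 0.000529). Abcc1 ranged from 8.94 to 9.29 in ZD knockout rats, against 8.60 to 9.34 in ZS knockout rats, and rose by 0.32 (adjusted p = 0.0408).

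Ephx1, which opens epoxides to diols, had the smallest adjusted p of all 36 genes in any comparison. It had a lowest value of 7.20, a median of 7.47 and a highest of 7.76 in ZD knockout rats, against 8.14, 8.79, 8.63 and 8.49 in ZS knockout rats. The ranges are well apart, and Ephx1 fell by 1.04 (SE 0.15, to 0.486 of the ZS level, adjusted p = 2.56e-05). Gstt1, a theta-class transferase, had a lowest value of 6.96, a median of 7.33 and a highest of 7.39 in ZD knockout rats, against 7.62, 7.80, 8.11 and 7.68 in ZS knockout rats, and fell by 0.53 (SE 0.10, adjusted p = 0.000716). Txnrd1 had a lowest value of 7.98, a median of 8.18 and a highest of 8.37 in ZD knockout rats, against 8.50, 8.75, 8.59 and 8.52 in ZS knockout rats. It fell by 0.42 (SE 0.12, adjusted p = 0.011), and its second probe set by 0.61 (log2 -0.61, adjusted p over probe sets = 0.0105). Mgst3 had a lowest value of 9.63, a median of 9.88 and a highest of 10.19 in ZD knockout rats, against 10.46, 10.58, 10.17 and 10.46 in ZS knockout rats, and fell by 0.54 (SE 0.14, adjusted p = 0.00711). Gpx3 ranged from 7.96 to 8.96 in ZD knockout rats, against 8.26 to 10.75 in ZS knockout rats, and fell by 0.88 (SE 0.30, adjusted p = 0.0355). Gstm2 ranged from 11.54 to 12.36 in ZD knockout rats, against 12.24 to 12.56 in ZS knockout rats, and fell by 0.34 (adjusted p = 0.0416).

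Me1 supplies NADPH, which the reductases use. It had a lowest value of 11.34, a median of 11.43 and a highest of 11.51 in ZD knockout rats, against 11.06, 11.07, 10.50 and 11.16 in ZS knockout rats. It rose by 0.49 (SE 0.10, adjusted p = 0.00141), and its second probe set was at 0.39 (adjusted p over probe sets = 0.0576). Srxn1, which repairs overoxidized peroxiredoxins, ranged from 9.88 to 10.51 in ZD knockout rats, against 9.38 to 9.79 in ZS knockout rats, and rose by 0.53 (SE 0.14, adjusted p = 0.00743). The other, dimmer probe sets of Srxn1 gave -0.20 and 0.18 and did not pass. Cbr1 had a lowest value of 8.86, a median of 8.94 and a highest of 9.12 in ZD knockout rats, against 8.70, 8.70, 8.37 and 8.60 in ZS knockout rats. These groups did not overlap, and the difference of 0.38 did not pass (adjusted p = 0.243). The 24 genes that did not pass ran from -0.44 for Gsr to 0.40 for Akr1b8, and Nqo1 was at -0.00 and Gclc at 0.02.

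With the smooth muscle covariate, 5 of these 12 genes still passed, Ephx1 (log2 -1.01), Gstt1 (log2 -0.48), Txnrd1 (log2 -0.41), Me1 (0.46) and Abcc4 (0.65). The Slc7a11 call was lost, at 0.45 (adjusted p = 0.0765), as were those of Gpx3 (log2 -0.47), Mgst3 (log2 -0.44), Gstm2 (log2 -0.35), Srxn1 (0.37), Abcc1 (0.29) and Gclm (0.24). Calls were lost without a rat for Gclm (ZS knockout rats 30 to 33 or ZD knockout rats 35, 37, 38 and 39, log2 0.27 to 0.34), Abcc1 (ZS rats 31 to 33 or ZD rats 35 to 39, log2 0.24 to 0.32), Gpx3 (ZS rats 31 to 33 or ZD rats 34, 38 and 39, log2 -0.90 to -0.45, the last without ZS knockout rat 32, whose Gpx3 was 10.75) and Gstm2 (ZS rats 30, 32 and 33 or ZD rats 35 and 38, log2 -0.36 to -0.23). Without ZS knockout rat 30 the Abcc1 difference was 0.49.

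Of the genes that passed on diet, 6 did so in both sets of rats, 46.2% of the 13 in unedited and 50% of the 12 in knockout rats, all in the same direction. Over all genes, 608 passed in both, 30.8% of the unedited and 19.9% of the knockout calls, and 90.3% of them had the same direction. Slc7a11, Gclm and Abcc4 rose in both, and Mgst3, Gpx3 and Txnrd1 fell in both. In a fit of only the groups compared, Gclm and Gpx3 lost their calls in knockout rats. Whether the diet effect differed between the sets was tested as the interaction, each effect being taken within its own experiment. Here 4 of 36 genes passed (11.1%, against 8.39% of all genes), 3 with a lower (against 4.61%) and 1 with a higher effect (against 3.78%) in knockout rats. Knockout, experiment and normalization cannot be told apart in these differences.

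In knockout rats no diet difference was detected for Gstm1. It had a lowest value of 10.67, a median of 11.07 and a highest of 11.60 in ZD knockout rats, against 10.80, 11.23, 11.09 and 11.31 in ZS knockout rats. The diet difference was -0.01 (95% interval -0.38 to 0.37) in knockout rats, against 1.24 in unedited rats, an interaction of -1.24 (SE 0.25, adjusted p = 0.00414) that passed under all 28 alternatives, from -1.35 to -1.09. Mgst2 had a lowest value of 10.65, a median of 10.81 and a highest of 11.51 in ZD knockout rats, against 10.54, 10.85, 10.56 and 10.76 in ZS knockout rats. Its diet difference was 0.21 in knockout rats, against 1.06 in unedited rats (interaction -0.85, SE 0.27, adjusted p = 0.0468). Ephx1 differed by -1.04 in knockout rats, against -0.39 in unedited rats (interaction -0.65, SE 0.21, adjusted p = 0.0469). In unedited rats Ephx1 was 6.23, 6.50, 6.82, 6.14 and 6.88 on ZD, against 6.78, 6.86, 6.96, 6.92 and 6.98 on ZS. Me1 differed by 0.49 in knockout rats, against -0.07 in unedited rats (interaction 0.56, SE 0.14, adjusted p = 0.0178). In unedited rats Me1 was 11.46, 11.44, 11.37, 11.39 and 11.75 on ZD, against 11.61, 11.49, 11.56, 11.65 and 11.44 on ZS, with full overlap.

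For the other genes no difference between the diet effects was shown. Akr1b8, at 0.40 in knockout and 1.53 in unedited rats, had an interaction of -1.12 (95% interval -2.00 to -0.24, adjusted p = 0.102). Akr1b8 had a lowest value of 10.03, a median of 10.55 and a highest of 11.14 in ZD knockout rats, against 10.12, 10.40, 9.89 and 10.36 in ZS knockout rats. Cbr1, at 0.38 and 1.21, had one of -0.83 (95% interval -1.48 to -0.17, adjusted p = 0.108), Slc7a11 one of -0.70 (adjusted p = 0.115), Gss one of -0.68 (adjusted p = 0.0873) and Gstp1 one of -0.64 (unadjusted p = 0.00773 and adjusted p = 0.071 in limma). Abcc4 had nearly equal effects, with a difference of -0.01 and an interval from -0.53 to 0.51, and Txnrd1 one of 0.03 from -0.30 to 0.37. Gstt1 was 6.77, 6.56, 6.58, 6.54 and 7.06 on ZD in unedited rats, against 6.68, 6.90, 6.87, 7.02 and 6.87 on ZS, a difference of -0.17 (interaction -0.37, adjusted p = 0.116).

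The Me1 interaction was lost with the mean of its probe sets (0.44, adjusted p = 0.0817). That of Mgst2 was lost with quantile normalization (log2 -0.81), median centring (log2 -0.82) and the smooth muscle covariate (log2 -0.69, adjusted p = 0.0693), and that of Ephx1 with median centring (log2 -0.62) and only the groups compared (log2 -0.65, adjusted p = 0.0557). With the smooth muscle covariate Gstm1 (log2 -1.09), Ephx1 (log2 -0.67) and Me1 (0.57) passed.

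The Mgst2 interaction was lost in 15 and that of Ephx1 in 16 of 20 fits without a rat (adjusted p 0.0637 to 0.088 and 0.0553 to 0.105): both without ZD rat 12 or 13, ZS rats 16 to 19, ZS knockout rats 31 to 33 or ZD knockout rats 34, 35, 36 or 39, Mgst2 also without ZD rat 14 or ZD knockout rat 37, and Ephx1 also without ZD rat 15, ZS rat 20 or ZD knockout rat 38 (log2 -0.89 to -0.78 and -0.67 to -0.56).

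**Figure D4:**
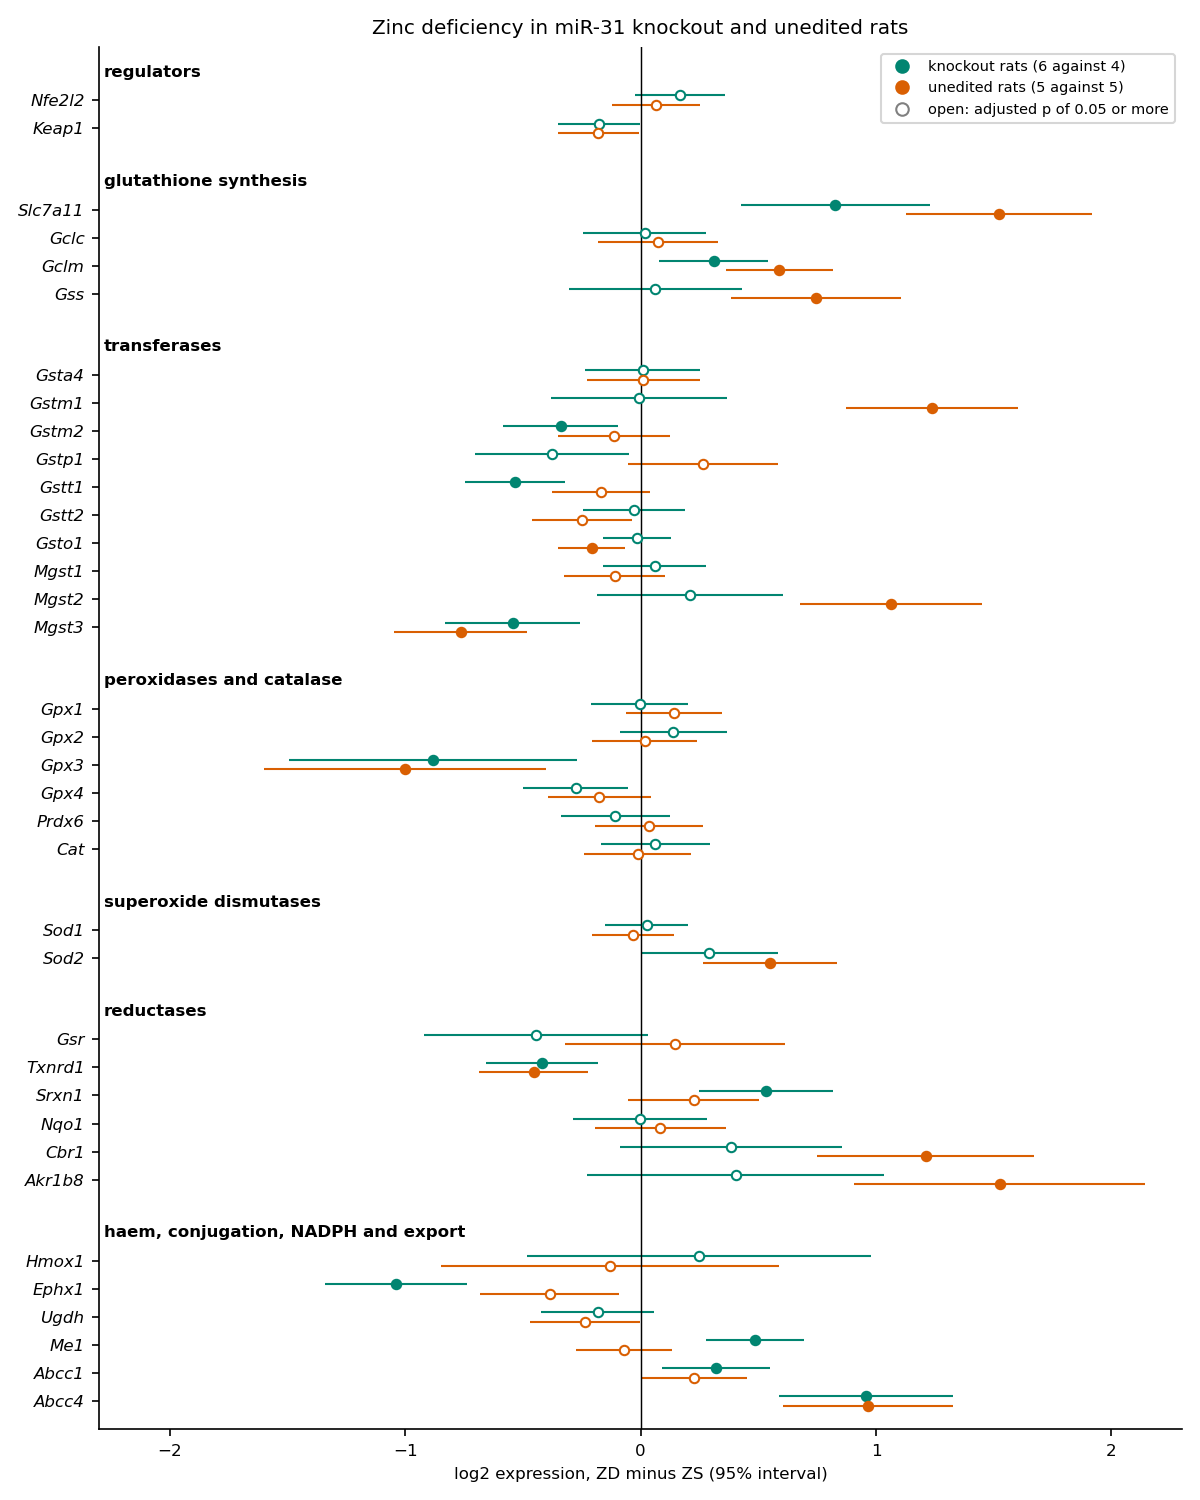
Log2 difference of ZD minus ZS rats (x axis) with its 95% interval for the 36 measured genes (y axis), grouped by role, in miR-31 knockout rats (6 against 4, upper point) and in unedited rats (5 against 5, lower point); filled points passed an adjusted p of 0.05 in limma. Gstm1 and Mgst2 stand near 0 in knockout rats and far right in unedited rats, while Abcc4, Mgst3, Gpx3 and Txnrd1 lie close together.

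Levels in knockout and unedited rats of the same diet are given without a test. The median over all genes was higher on the knockout arrays by 0.26 on ZD and 0.25 on ZS, and over the 36 genes by 0.12 and 0.24. On ZD, Slc7a11 averaged 8.51 in knockout and 9.56 in unedited rats, and Cbr1 8.98 and 9.81. On ZS, Gstm1 averaged 11.11 in knockout and 10.15 in unedited rats, and on ZD 11.10 and 11.38. Such differences include the shift of all genes, so that knockout levels cannot be placed between the unedited diets. On ZS, Ephx1 averaged 8.51 in knockout and 6.90 in unedited rats and Me1 10.95 and 11.55. Gpx3 averaged 9.47 in knockout and 8.36 in unedited rats on ZS.

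Further genes of the pathway were read from lists of related genes, counted over all their measured members. These lists too were chosen with earlier results of these data known. For each count in unedited rats the share of all genes was 6.94% rising and 6.95% falling, and in knockout rats it was 9.47% and 12%. In untreated ZD against ZS rats, 5 of 14 targets of ATF4, the regulator of the amino acid stress response that also drives Slc7a11, rose (against 6.94% of all genes) and 0 fell. They include Trib3, a pseudokinase, at 1.12 (adjusted p = 0.00178), Asns, asparagine synthetase, at 1.10 (adjusted p = 0.00268), Shmt2, a mitochondrial serine enzyme, at 0.57 (adjusted p = 0.0128) and Ddit4, an inhibitor of mTORC1, at 0.76 (adjusted p = 0.0262). The median of that list was 0.25. After 20 weeks of antimiR, Asns fell by 1.09 against untreated ZD (adjusted p = 0.0278) and was the only one of the 14 to pass. In knockout rats 1 of the 14 rose on ZD, Psat1 of serine synthesis at 0.49 (adjusted p = 0.0232), and 1 fell, Slc3a2, the heavy chain that carries Slc7a11 to the membrane, at -0.49 (adjusted p = 0.000484), which is no more than the 9.47% and 12% of all genes. The diet effects on Slc3a2 differed (interaction -0.73, adjusted p = 0.00137), as did those on Shmt2 (interaction -0.74, adjusted p = 0.0344) and Ddit4 (interaction -1.07, adjusted p = 0.0406). Slc3a2 thus fell on ZD in the same knockout rats in which Slc7a11 rose.

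Of 16 further genes listed as Nrf2 targets, 1 rose and 5 fell on ZD in unedited rats (against 6.94% and 6.95% of all genes). Their median was -0.30. The median of the 12 smooth muscle markers was -1.99 in the same comparison. What part tissue composition or other regulators have in this list was not tested. Sod3, extracellular superoxide dismutase, fell by 2.12 (adjusted p = 0.000267), Cyp1b1, a cytochrome that activates carcinogens, by 1.56 (adjusted p = 0.000143) and Akr7a2, an aldehyde reductase, by 0.52 (adjusted p = 0.000287). Akr7a3, the related aflatoxin aldehyde reductase, rose by 0.48 (adjusted p = 0.00268). In knockout rats 1 rose and 6 fell (against 9.47% and 12%), with Akr7a3 at 0.70 (adjusted p = 4.54e-05) and Akr1a1, an aldehyde reductase, at -0.32 (adjusted p = 0.000113). Cyp1b1 was at -1.10 (adjusted p = 0.00206) and Aox1, aldehyde oxidase, at -1.27 (adjusted p = 0.00258) there. In 20-week antimiR rats against ZS, 1 rose and 2 fell (against 1.83% and 1.8%), Akr7a3 at 0.48 (adjusted p = 0.0109), Sod3 at -1.73 (adjusted p = 0.00679) and Cyp1b1 at -1.17 (adjusted p = 0.00689). In 5-week antimiR rats against ZS, 0 rose and 4 fell (against 4.6% and 4.48%), among them Cyp1b1 at -1.63 (adjusted p = 0.000205).

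Of 11 measured partners of Nrf2, 0 rose and 1 fell in unedited rats, Sqstm1 (p62), an adaptor that binds Keap1, at -0.28 (adjusted p = 0.0331). In knockout rats 3 rose and 2 fell (against 9.47% and 12% of all genes). Nfe2l1, a relative of Nrf2, fell by 0.40 (adjusted p = 7.65e-05), Sqstm1 fell by 0.44 (adjusted p = 0.0011), and Gsk3b, a kinase that marks Nrf2 for degradation, rose by 0.65 (adjusted p = 0.000213). Rxra, a nuclear receptor that restrains Nrf2, rose by 0.43 (adjusted p = 0.000912), and Cul3, the ligase scaffold, had an interaction of 0.53 (adjusted p = 0.00834). Maff, a small Maf, rose by 1.06 in 5-week antimiR rats against ZS (adjusted p = 0.0451), the only partner to pass in any antimiR comparison.

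Of 16 thioredoxin system genes, 2 rose and 3 fell in unedited rats (against 6.94% and 6.95% of all genes). Sesn3, a sestrin, rose by 0.64 (adjusted p = 0.00815), Sesn1 fell by 0.75 (adjusted p = 0.00911) and Txnip, the inhibitor of thioredoxin, fell by 0.85 (adjusted p = 0.0221). In knockout rats 5 rose and 2 fell (against 9.47% and 12%), and Sesn2 rose by 0.44 there (adjusted p = 0.000323), against a fall of 0.23 in unedited rats (interaction 0.67, adjusted p = 0.000826). Of 7 genes of NADPH supply, 0 rose and 2 fell in each diet comparison, Taldo1 and Idh2 in unedited rats (log2 -0.31 and -0.46) and Pgls and Tkt in knockout rats (log2 -0.31 and -0.39).

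Of 14 further glutathione transferases, 2 rose and 1 fell in unedited rats. Gstm4, of the same mu class as Gstm1, rose by 0.65 (adjusted p = 0.000187), fell by 0.51 after 20 weeks of antimiR against untreated ZD (adjusted p = 0.0191) and had an interaction of -0.57 (adjusted p = 0.0167). Gstm7 went the other way, with -0.58 on ZD (adjusted p = 0.0137) and an interaction of 0.83 (adjusted p = 0.0221). In knockout rats 0 of the 14 rose and 1 fell. Of 10 genes of glutathione turnover, 2 rose and 1 fell in unedited rats, among them Chac2, which degrades glutathione, at 0.57 (adjusted p = 0.00903) and Lap3, an aminopeptidase, at 0.73 (adjusted p = 0.00301). In knockout rats 1 rose and 3 fell, among them Chac2 at 0.76 (adjusted p = 0.000677) and Ggt5, a gamma-glutamyltransferase, at -0.82 (adjusted p = 6.02e-06). Of 8 genes of iron and haem, 0 rose and 1 fell in unedited rats, the transferrin receptor Tfrc at -0.41 (adjusted p = 0.0459), and 1 rose in knockout rats, the haem-synthesis enzyme Fech at 0.52 (adjusted p = 0.0231).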

How the data were processed

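Per the submitters' processing notes, the authors used Affymetrix Expression Console and RMA, whose versions are not given in the sources used here; what they deposited is 1 log2 value for each probe set and array. The array medians fall into 2 sets, of 20 unedited and 10 knockout arrays, which were taken as normalized separately. Of 31099 probe sets, 20826 carried 1 gene symbol. Symbols were updated by gene ID to the RefSeq GRCr8 table, and the probe set with the highest mean stood for each of 14217 genes. A single limma model (version 3.58.1, R 4.3.3) over the 30 arrays had 1 coefficient per group, empirical Bayes variances and Benjamini-Hochberg adjustment over all genes. The same steps were tested on simulated data. The labels give 1 array per rat, and 4 to 6 arrays per group limit the precision.

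The genes and lists were chosen with earlier results of these data known. Values are given array by array for Nfe2l2, Keap1 and the 12 genes with the smallest adjusted p among those that passed (for the 6 ZD knockout rats, the lowest, median and highest), and ranges or differences for the others that passed. Any gene with an unadjusted p under 0.01 is named. Of each related list, up to 4 genes by smallest adjusted p are named per comparison. Promoter letters were counted in Python 3.11.15 on RefSeq sequences. Other settings tried were quantile normalization, centring on the median, a filter that removed the 30% of genes with the lowest means, a robust empirical Bayes fit with a mean trend, weights per array, a fit of the compared groups alone, the mean over a gene's probe sets, smooth muscle level as a covariate, each array left out and, added after the data were seen, arrays of 1 normalization set alone. Probe sets with several symbols were not used here.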

Additional observations from a re-analysis of the deposited data

Results flagged for a closer look

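Among 216 sets of values (36 genes in 6 groups), 16 had 1 rat further from the rest than Dixon's 95% value, where chance gives about 10.8 (1 in 20). In ZD knockout rats, rat 38 stood apart for Slc7a11 (9.03), Gss (8.46), Mgst2 (11.51) and Hmox1 (10.01), each the highest, and for Gstt1 (6.96), the lowest. It was the highest of the 6 rats for 14 of the 36 genes and the lowest for 6. In the 20-week antimiR group, rat 2 was highest for Sod2 (10.44), Gsr (6.60) and Cbr1 (9.51), and rat 1 lowest for Keap1 (7.21) and Gclm (10.26). Single rats stood apart for Prdx6 (10.96, untreated ZD rat 14), Srxn1 (9.08, ZS rat 19), Ugdh (9.66, 5-week antimiR rat 7) and Abcc1 (9.34, ZS knockout rat 30). Me1 had a high untreated ZD rat 15 (11.75) and a low ZS knockout rat 32 (10.50).

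The effect of diet differed between knockout and unedited rats in the interaction test for Gstm1 (-1.24), Mgst2 (-0.85), Ephx1 (-0.65) and Me1 (0.56), on the log2 scale. Knockout, experiment and normalization cannot be told apart there.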

How the results depend on the processing

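Of the 36 genes, 13 passed in unedited ZD against ZS rats, 2 after 20 weeks of antimiR against untreated ZD, 7 and 10 after 20 and 5 weeks against ZS, 12 in ZD against ZS knockout rats and 4 in the interaction. With smooth muscle level as a covariate these counts were 2, 0, 0, 3, 6 and 3. Where they were 0 in limma, 7 (untreated ZD) and 11 (ZS) genes had an unadjusted p under 0.05. Over all genes the counts in the same order were 1974, 92, 516, 1291, 3049 and 1193. With the covariate they were 168, 34, 120, 305, 1551 and 1372. For 20 weeks against untreated ZD the count was 1 with median centring and with the mean of probe sets (76 and 67 of all genes). With the same normalization set, chosen after the data were seen, it was also 1 (95 of all genes). With array weights it was 5 (557 of all genes). With only the groups compared it was 0 (21 of all genes, limma), where 8 of the 36 genes had an unadjusted p under 0.05. For 20 weeks against ZS it was 4 with quantile normalization and 2 with only the groups compared (416 and 140 of all genes). On diet in knockout rats it was 9 with only the groups compared, and also 9 with the same normalization set (2112 of all genes in each). Gclm, Gstm2, Gpx3 and Abcc1 lost their calls in both of these fits, and a gene outside the 12 rose in both. On diet in unedited rats it was 11 with only the groups compared (1740 of all genes), where Gsto1 and Sod2 lost their calls. For the interaction it was 2 with median centring and 9 with array weights (1091 and 1612 of all genes). The cause was not tested. No direction reversed, and for 5 weeks against untreated ZD and 20 against 5 weeks the count was 0 in limma under every alternative, with 6 to 14 and 2 to 9 genes at an unadjusted p under 0.05.

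Leaving out each rat in turn gave 11 to 14 genes on diet in unedited rats (1191 to 2424 of all genes). For 20 weeks against untreated ZD it gave 0 to 5 (all genes 9 to 379). For 5 weeks against untreated ZD and for 20 against 5 weeks it gave 0 to 0 (all genes 0 to 4 and 0 to 20). Against ZS it gave 2 to 8 for 20 weeks and 6 to 10 for 5 weeks (all genes 166 to 690 and 771 to 1547). On diet in knockout rats it gave 8 to 11 (all genes 1566 to 3244), and in the interaction 2 to 5 (all genes 615 to 1519). For 20 weeks against untreated ZD the count was 0 without antimiR rat 1, 3, 4 or 5 or ZD rat 12, 13 or 14 (limma, with 6 to 9 genes at an unadjusted p under 0.05), 1 without ZD rat 11, 4 without antimiR rat 2 and 5 without ZD rat 15. Against ZS it was 2 without antimiR rat 2 or ZS rat 18, 3 without antimiR rat 1 or 3 or ZS rat 16 or 19, and 4 without ZS rat 20. For 5 weeks against ZS it was 6 without antimiR rat 8. The interaction count was 2 without ZD rat 12 or 13, ZS rats 16 to 19, ZS knockout rats 31 to 33 or ZD knockout rats 34, 35, 36 or 39. Of 948 refits of the 48 gene results that passed, 735 still passed, and 11 results passed in all of theirs. No paired analysis was possible because no groups share sample numbers.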
